A study of Mus musculus with 8 samples.

Results

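This report describes 10 SOX transcription factor genes (Sox2, Sox4, Sox5, Sox6, Sox8, Sox9, Sox10, Sox11, Sox17 and Sox18) in single cells of mouse glioma and of the brain around it. They were taken by name from the 32502 genes listed in at least 1 of the 8 deposited count tables, and all 10 had UMIs in the cells kept. A UMI is a molecular tag that counts 1 captured RNA molecule once. GL261 is a mouse glioma line that grows as a tumour in the brain. Hosts are C57BL/6 in the labels and C57BL/6N in the study's methods. Each received 500 GL261 cells, placed in the right striatum per the labels and in the frontal cortex per the methods. Hosts were Irg1/Acod1 +/+ (WT) or Irg1/Acod1 -/- (KO), the latter carrying a cassette allele of Acod1, the enzyme that makes itaconate in myeloid cells. Both genotypes shared the strain and the implanted cells. Each genotype gave 1 Drop-seq library per stage from 1 mouse: early (5 to 10 mm3 by MRI), intermediate (20 to 25 mm3) and late (30 to 35 mm3). Each also gave 1 naive library without a tumour, in which 2 mice were pooled. The tumour core was dissected and myelin was depleted with beads, so cell numbers per class do not measure the make-up of the tissue. Per the study's methods, WT and KO hosts were of opposite sex at the early and the intermediate stage and of the same sex at the late one. The age of the mice is not used here.

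SOX proteins bind the minor groove of DNA through a high-mobility-group (HMG) box and bend it, usually next to a partner factor. They fall into groups by that box. The SOXB1 factor SOX2 keeps neural stem cells and astrocyte precursors undifferentiated. The SOXE factors SOX8, SOX9 and SOX10 specify glia: SOX9 marks astrocytes, and SOX10 drives the oligodendrocyte lineage from precursor (OPC) to myelin. The SOXD factors SOX5 and SOX6 lack a transactivation domain and modulate SOXE factors, the SOXC factors SOX4 and SOX11 act in newborn neurons and other immature cells, and the SOXF factors SOX17 and SOX18 act in vascular endothelium.

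The 10 genes share their most conserved stretch, and it is printed to show how near the members are to each other at the level of sequence. It is the longest run of residues common to all 10 open reading frames, 9 residues within the HMG box, and 27 bases encode it in each gene. The transcripts are from GENCODE M21 on GRCm38, and capitals mark bases that differ from Sox2.
Sox2: aggcccatgaacgccttcatggtatgg
Sox4: CggcccatgaacgccttTatggtGtgg
Sox11: CggcccatgaacgccttcatggtGtgg
Sox5: CgTccAatgaaTgccttcatggtGtgg
Sox6: CgAccAatgaaTgcGttcatggtTtgg
Sox8: CggcccatgaaTgccttcatggtGtgg
Sox9: CgAcccatgaacgccttcatggtGtgg
Sox10: aggcccatgaacgccttcatggtGtgg
Sox17: CggccGatgaacgccttTatggtGtgg
Sox18: CggcccatgaacgccttcatggtGtgg
The stretch lies in a coding exon of every member. In Sox2 it is at chr3:34650548-34650574 on the plus strand, in the only exon, and in Sox9 at chr11:112782903-112782929 on the plus strand, in exon 1 of 3. In Sox4 it is at chr13:28952815-28952841 and in Sox11 at chr12:27342232-27342258, both minus-strand genes of 1 exon. In Sox10 it is at chr15:79163375-79163401, exon 3 of 5, and in Sox8 at chr17:25570196-25570222, exon 1 of 3, both on the minus strand. The SOXD pair carries it far along the protein, at chr6:143841247-143841273 in exon 13 of 15 of Sox5 and at chr7:115489736-115489762 in exon 15 of 17 of Sox6, again on the minus strand. Sox17 holds it at chr1:4493173-4493199, exon 4 of 5, and Sox18 at chr2:181671255-181671281, exon 1 of 2, both on the minus strand. Over the 210 bases around it, Sox4 and Sox11 were 90.95% identical, Sox8 and Sox9 86.19%, Sox17 and Sox18 84.29% and Sox5 and Sox6 82.38%. Drop-seq counts tags near the 3′ end of a transcript, so the counted tags are not expected to lie in the box. Sox2 lies inside the longer noncoding gene Sox2ot on the same strand, so tags of the 2 genes may have been assigned to either.

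Cells were grouped without any SOX gene, and the classes were named from other marker genes; each name below means cells like that type by those markers. Levels are CPM, the UMIs of a gene per 1000000 UMIs of a class, in each library with at least 5 of its cells. A UMI counts a molecule whatever its length, but capture and the assignment of tags can differ between genes. An order of different members is thus one of UMIs counted and not of transcripts. Of 5698 cells with at least 1000 genes, 3390 fell in the tumour class, 9 of them from naive libraries. The cells kept numbered 454 to 1000 per library, with medians of 2597.5 to 5637.5 UMIs. The names rest on these markers, so their levels describe the classes and do not check them: 4 of 5 tumour, 8 of 9 macrophage and 7 of 8 neuroblast markers were highest in their own class, and in every other class all detected ones were. The 9 naive cells in the tumour class held no Sox10 UMI, but had Sox9 at 155 and Sox11 at 103 CPM when pooled, unlike the tumour cells described below, and enter no comparison. No pair of libraries shared more than 2 of their 1000 largest barcodes. Acod1 was at 160, 49.9 and 19.2 CPM in myeloid cells of the early, intermediate and late WT libraries and at 52.6, 10.8 and 49.8 in those of the KO. The late KO value, from 25 UMIs, was above the late WT one, from 4. By qPCR the paper could not detect Acod1 in macrophages grown from KO bone marrow. Whether 3′ tags of the cassette allele are counted as Acod1 was not tested, so these levels do not check the genotype. Nothing in the labels ties the libraries to further replicates, and the p-values measure only the spread between these libraries.

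Tumour cells held UMIs of mainly 4 members. Sox2 was at 315 ± 100 CPM (mean ± SD, n = 6 libraries), Sox10 at 255 ± 31.1, Sox6 at 239 ± 44.3 and Sox4 at 102 ± 19.6. Sox8 followed at 26.2 ± 12.1. The order of Sox2, Sox10 and Sox6 was not resolved by the spread between libraries, while Sox4 lay below and Sox8 further below in every library. The other 5 members were nearly absent from 3381 tumour cells with 29192923 UMIs: Sox9 had 65 UMIs, Sox5 42, Sox17 36, Sox11 34 and Sox18 10. Fold changes below are log2 ratios from edgeR's quasi-likelihood test on UMIs summed per library and class with the library as a block, and a gene is called at a Benjamini-Hochberg adjusted p below 0.05 over all genes tested. The scaling sets the bulk of genes and not the totals equal, and the median log2 fold change of all genes tested was still 0.23 to 1.27 above 0 in the 9 tumour against lineage comparisons. A member's fold change near 0 thus lies below that of the median gene.

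**Figure D1:**
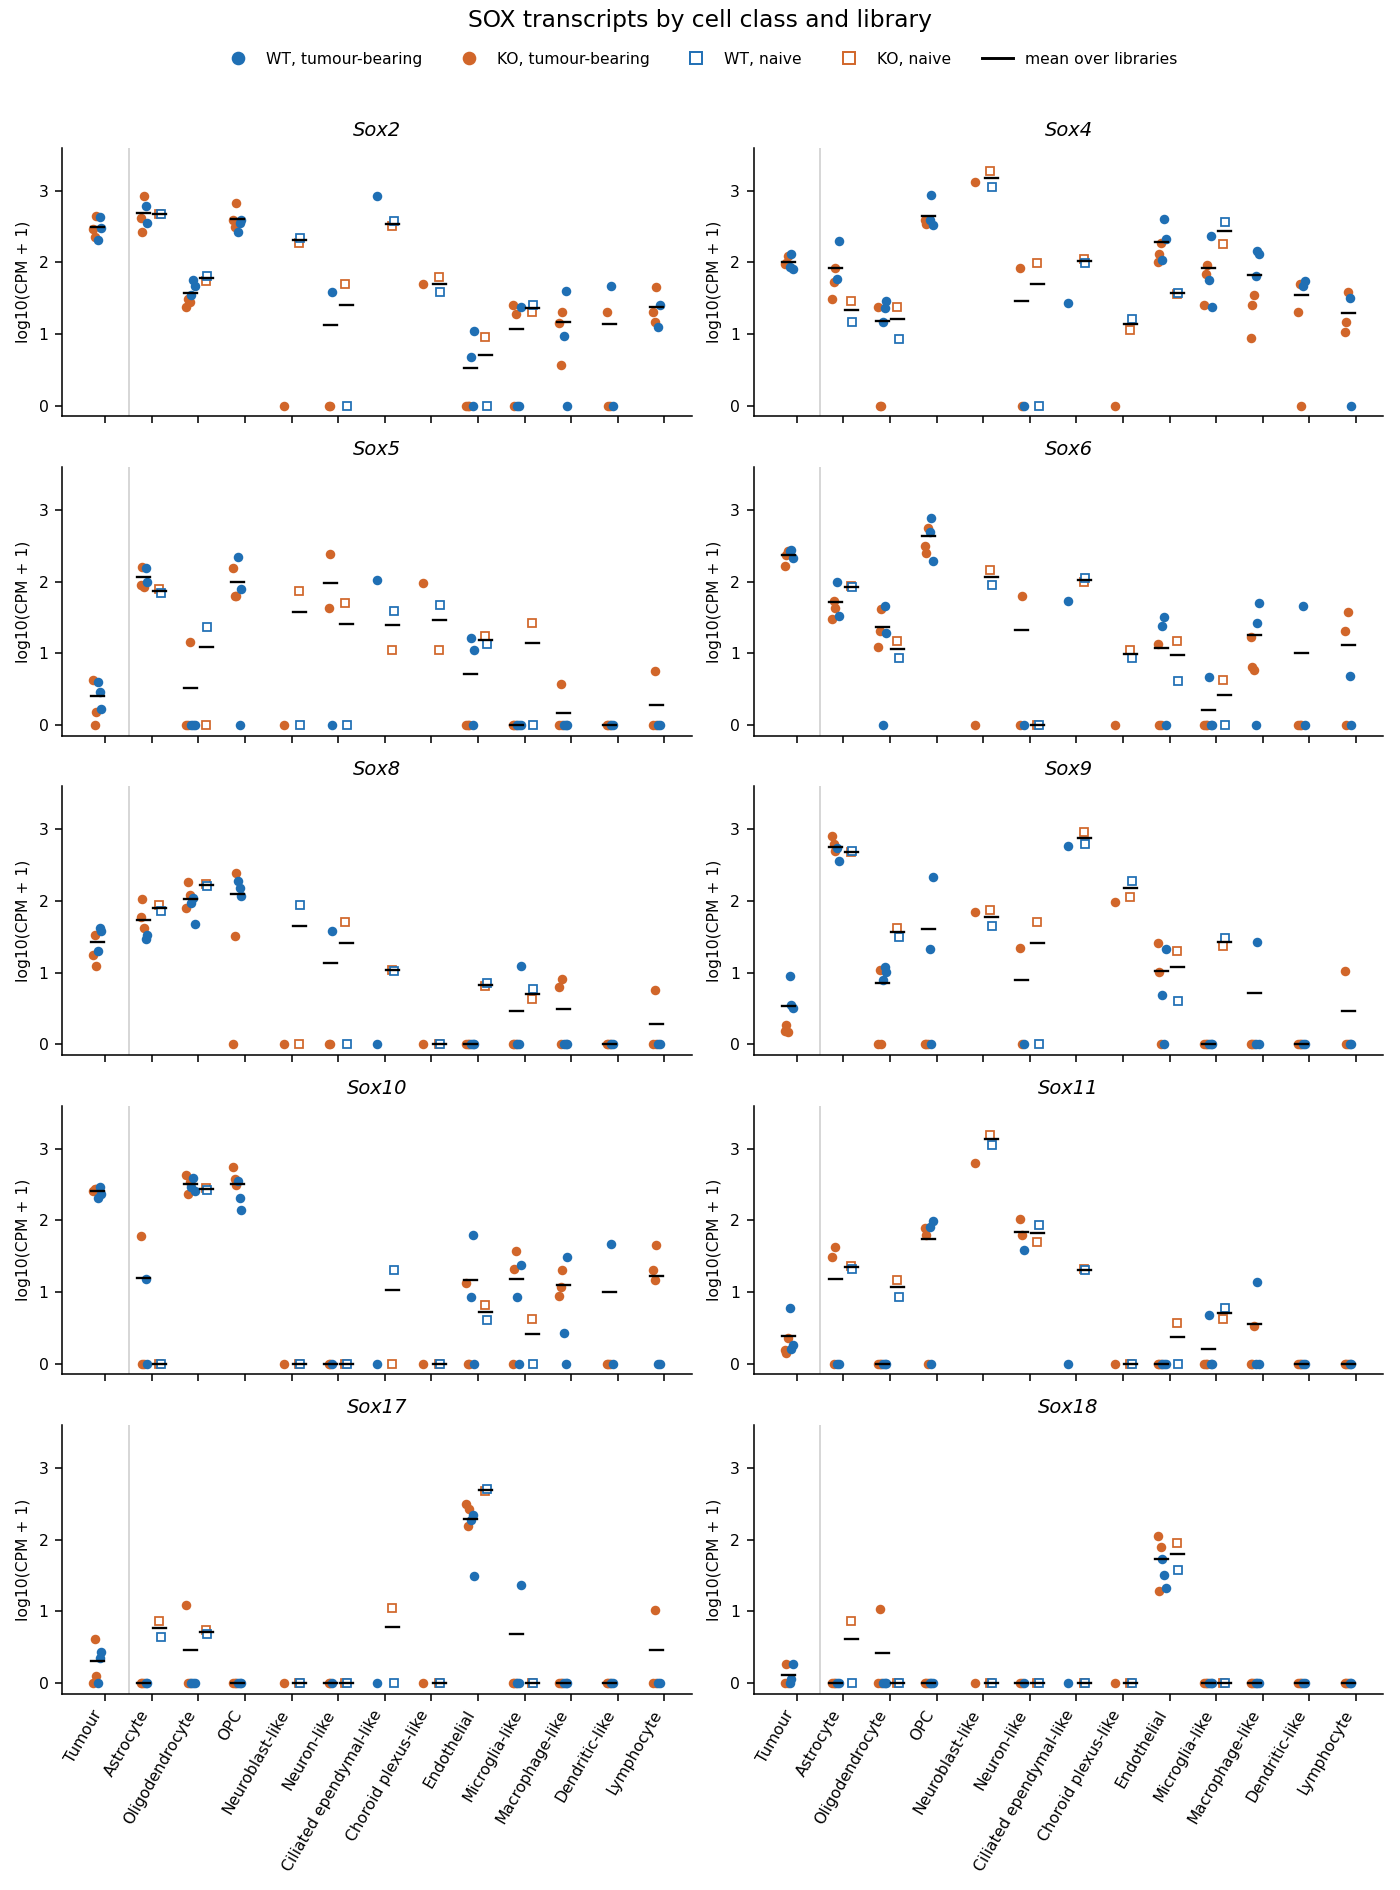
Level of each SOX gene in each cell class, as log10(CPM + 1), with 1 point per library of at least 5 cells, filled circles for tumour-bearing and open squares for naive brain, blue for WT and orange for KO, and a black line at the mean. Tumour cells sit high for Sox2, Sox4, Sox6 and Sox10, astrocytes for Sox9 (360 to 800 CPM in tumour-bearing brain) and endothelial cells for Sox17 (30.2 to 508).

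Sox2 levels in tumour cells overlapped those of astrocytes and OPCs, the glial classes that held most of it. In tumour cells it was at 201, 424 and 306 CPM in the early, intermediate and late WT libraries and at 291, 223 and 443 in the KO libraries. In OPCs it ranged from 264 to 685 with a mean of 400 ± 148 (n = 6), and in astrocytes from 264 to 833 with a mean of 496 ± 227 (n = 5). The ranges of all 3 classes overlapped. Against OPCs the log2 fold change was 0.09 (SE 0.31, edgeR adjusted p = 0.869), although the CPM was lower in tumour cells in 5 of 6 libraries, so its sign depended on the scaling. Against astrocytes it was -0.38 (SE 0.31, edgeR adjusted p = 0.345), with the tumour level lower in 5 of 5 libraries. Oligodendrocytes held less, 22.7 to 55.2, and did not overlap tumour cells in level. The tumour was 2.84 higher there on the log2 scale (SE 0.25, edgeR adjusted p = 3.3e-23).

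Sox2 was also found in ciliated ependymal cells, which line the ventricles, and in neuroblast-like cells. In naive brain the former stood at 375 and 319 CPM and the latter at 220 and 183. In tumour-bearing brain 1 library held enough ciliated ependymal cells, the early WT one with 7, at 845. Endothelial cells held 2 UMIs in all tumour-bearing libraries together, and tumour cells were 6.45 higher on the log2 scale (SE 0.49, edgeR adjusted p = 1.86e-16). Naive astrocytes were at 467 and 476, within the range of astrocytes from tumour-bearing brain.

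Sox10, the SOXE factor of the oligodendrocyte lineage, set tumour cells apart from astrocytes. Tumour cells held 206, 288 and 231 CPM in the early, intermediate and late WT libraries and 254, 276 and 275 in the KO libraries. Astrocytes held 14.2 in the early WT and 59.2 in the early KO library and none in the other 3 tested, and no Sox10 UMI was seen in 215 naive astrocytes. Tumour cells were therefore higher in 5 of 5 libraries, by 4.19 on the log2 scale (SE 0.62, edgeR adjusted p = 2.14e-10). The levels of both classes of the oligodendrocyte lineage overlapped those of the tumour. OPCs ranged from 137 to 549 with a log2 fold change of 0.17 (SE 0.33, edgeR adjusted p = 0.75). Oligodendrocytes ranged from 235 to 432. There the tumour was lower (log2 -0.48, SE 0.16, edgeR adjusted p = 0.00725), a call that was lost in 5 of 16 alternatives, with adjusted p-values up to 0.958.

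Sox8, the third SOXE gene, was lower in tumour cells than in the oligodendrocyte lineage. Tumour libraries ranged from 11.3 to 40.9 CPM and oligodendrocytes from 46.1 to 186, with no overlap. The log2 fold change was -2.20 (SE 0.28, edgeR adjusted p = 9.47e-13), lower in 6 of 6 libraries. OPCs held 193, 0, 154, 31.1, 117 and 249 in the WT early, KO early, WT intermediate, KO intermediate, WT late and KO late libraries. The tumour lay below them in 4 of 6 (log2 -1.95, SE 0.47, edgeR adjusted p = 0.000387), and without the early WT library this was no longer called (adjusted p = 0.111). Against astrocytes, at 28.4 to 106, the log2 fold change was -0.68 (SE 0.68, edgeR adjusted p = 0.45). Endothelial cells had no Sox8 UMI among 646049, which allows a level up to 3 counts, so tumour cells were at least 6.35-fold higher.

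Sox9 had the largest difference between tumour cells and astrocytes among the 7 members tested there. Astrocytes held 554, 800, 634, 360 and 500 CPM in the WT early, KO early, KO intermediate, WT late and KO late libraries, with a mean of 569 ± 163 (n = 5). Tumour cells held 7.99, 0.549, 0.837, 2.22 and 0.512 in the same libraries. Every tumour value lay far below every astrocyte value. The log2 fold change was -7.71 (SE 0.44, edgeR adjusted p = 9.93e-67). Summed astrocyte markers stood in tumour cells at 0.778% of their level in astrocytes, and Sox9 at 0.395%; the part of free or neighbouring RNA in those few UMIs was not tested. The early WT library, with the highest value, held 23 of the 73 astrocytes from tumour-bearing brain, and the ratio of astrocyte markers in its tumour cells was 0.580%. Sox9 there, at 7.99 against 554 CPM, was a larger share than the markers. In each other library tested it was a smaller one. Against OPCs Sox9 did not pass the filter on low counts: 65 tumour UMIs stood against 13 OPC UMIs, a 25.4-fold higher pooled level in OPCs, of which 11 UMIs came from the late WT library. Ciliated ependymal cells of naive brain held 630 and 909 CPM, more than naive astrocytes at 497 and 482, and choroid plexus cells 191 and 112.

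Among SOXD genes the tumour held Sox6 without Sox5. Sox6 was at 271, 280 and 211 CPM in the early, intermediate and late WT libraries and at 167, 235 and 271 in the KO libraries. OPCs held 196 to 768 with a mean of 431 ± 218, and the log2 fold change was -0.29 (SE 0.32, edgeR adjusted p = 0.519), with the tumour lower in CPM in 5 of 6 libraries. Astrocytes held 29.6 to 99.4 and oligodendrocytes 0 to 44.2, both below every tumour library. Tumour cells were higher than astrocytes by 2.36 on the log2 scale (SE 0.47, edgeR adjusted p = 6.31e-06) and higher than oligodendrocytes by 3.70 (SE 0.32, edgeR adjusted p = 6.58e-24).

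Sox5 differed from its group partner. Tumour cells held 3.0, 1.88 and 0.682 CPM in the early, intermediate and late WT libraries and 3.30, 0 and 0.512 in the KO libraries. Astrocytes held 83.3 to 159 (mean 117 ± 37.3, n = 5), all above the tumour. The log2 fold change was -6.00 (SE 0.66, edgeR adjusted p = 6.38e-18). OPCs held 223, 157, 0, 62.2, 78.2 and 62.3 in the WT early, KO early, WT intermediate, KO intermediate, WT late and KO late libraries. Sox5 did not pass the low-count filter there, and the pooled level was 93.6-fold higher in OPCs (31 against 42 UMIs, from 230220 and 29192923 in all). Naive astrocytes held 67.7 and 78.8. Of the neighbours in the order of Sox5 levels in tumour-bearing brain, astrocytes, OPCs and neuron-like cells overlapped one another.

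Sox4, a SOXC gene, was present in most classes, and OPCs held more of it than tumour cells did. Tumour cells held 85.9, 129 and 80.0 CPM in the early, intermediate and late WT libraries and 94.8, 98.5 and 121 in the KO libraries. OPCs held 332 to 392 in 5 libraries and 871 in the intermediate WT library, where 5 cells made up the class. All OPC values lay above all tumour values, and the log2 fold change was -1.67 (SE 0.33, edgeR adjusted p = 7.16e-06). Oligodendrocytes held 0 to 27.7, below every tumour library, with the tumour higher by 2.57 on the log2 scale (SE 0.38, edgeR adjusted p = 4.93e-10). Astrocytes overlapped the tumour at 29.6 to 196, with a log2 fold change of 0.60 (SE 0.49, edgeR adjusted p = 0.337). Endothelial cells stood at 99.4 to 404, above the tumour in every one of the 6 libraries. The difference on the log2 scale was -0.68 (SE 0.26, edgeR adjusted p = 0.0334). That call was lost or turned in 11 of 17 alternatives: without endothelial cells rich in mural markers the log2 fold change was 0.78.

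Sox11, the other SOXC gene, was almost missing from tumour cells. They held 5.0 CPM in the early WT library and 0.418 to 1.28 in the others. OPCs held 0 to 97.8, 16 UMIs in all, and the pooled level was 59.7-fold higher there than in the tumour. Neuron-like cells, tested in 3 libraries, held 37.5 to 105, above the tumour in 3 of 3 (log2 -5.65, SE 1.2, edgeR adjusted p = 4.14e-05). In naive brain the neuroblast class had 1146 and 1573 CPM of Sox11 and 1146 and 1865 of Sox4, the highest level of both genes in any naive class. It had 9 and 12 cells.

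The SOXF genes stayed with the endothelium. Sox17 was at 188, 311, 217, 156, 30.2 and 266 CPM in endothelial cells of the WT early, KO early, WT intermediate, KO intermediate, WT late and KO late libraries. Tumour cells held 0 to 3.14, below every endothelial value, and the log2 fold change was -7.20 (SE 0.50, edgeR adjusted p = 5.67e-18). Sox18 was at 18.3 to 112 in endothelial cells and at 0 to 0.853 in tumour cells, with a log2 fold change of -6.87 (SE 0.70, edgeR adjusted p = 6.47e-12). Summed endothelial markers stood in tumour cells at 5.40% of their endothelial level, Sox17 at 0.675% and Sox18 at 0.671%. Whether tumour cells make some of these markers themselves was not tested, so the 5.40% does not measure RNA carried over from endothelium.

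**Figure D2:**
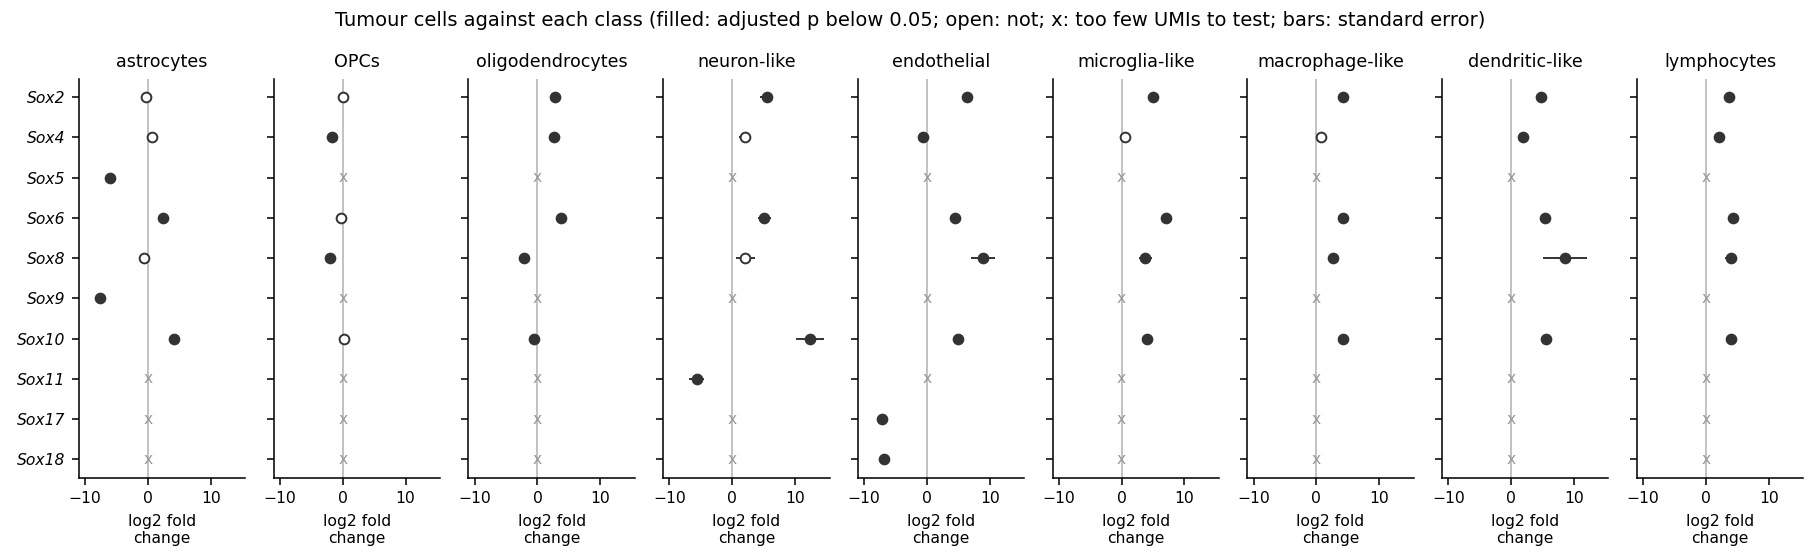
Log2 fold change of each SOX gene in tumour cells against each class of tumour-bearing brain (bars, 1 SE); filled points were called, open ones were not, and an x marks a gene with too few UMIs to test. Against astrocytes Sox10 (4.19) and Sox6 (2.36) lie to one side and Sox9 (-7.71) and Sox5 (-6.00) to the other, while the points of Sox8 against endothelial and dendritic-like cells and of Sox10 against neuron-like cells rest on classes with 0 UMIs, so their place is no bound.

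Counted by lineage, the members that passed the filter divided as follows. A member can pass through tumour cells alone, so the directions of these counts were in part set by the filter. Against astrocytes 7 were tested: Sox6 and Sox10 were higher and Sox5 and Sox9 lower in the tumour, beside 27.1% of all genes higher and 8.87% lower. Against OPCs 5 were tested, none was higher and Sox4 and Sox8 were lower, beside 20.3% and 8.8%. Sox2, Sox6 and Sox10 were not called against OPCs, whose sums were among the smallest (64 cells), and without the filter or with at least 10 cells per sum 5 members were called there. Against oligodendrocytes 5 were tested, Sox2, Sox4 and Sox6 higher and Sox8 and Sox10 lower, beside 35.7% and 20.8%. Against endothelial cells 7 were tested, Sox2, Sox6, Sox8 and Sox10 higher and Sox4, Sox17 and Sox18 lower, beside 24.3% and 15.9%. Against neuron-like cells 6 were tested in 3 libraries, Sox2, Sox6 and Sox10 higher and Sox11 lower, beside 15.8% and 7.03%; Sox10 had no UMI in the neuron-like sums.

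Immune cells held few UMIs of most members. Against microglia-like cells, the resident macrophages of the brain, 5 members were tested and Sox2, Sox6, Sox8 and Sox10 were higher in the tumour, with none lower, beside 33.0% of all genes higher and 15.4% lower. The same 4 members were higher against macrophage-like cells, again of 5 tested and with none lower, beside 35.3% and 22.7%. Against lymphocytes and against dendritic-like cells all 5 tested members, Sox4 included, were higher and none lower, beside 25.0% and 15.3% for lymphocytes and 21.6% and 7.58% for dendritic-like cells. Sox8 had 1 UMI in lymphocytes, and Sox6 had 1 in microglia-like and 1 in dendritic-like cells, so they passed the filter through tumour cells. The other 5 members failed it. That no member was lower was thus largely set by the filter. Lymphocytes of the late WT library and dendritic-like cells and astrocytes of the intermediate WT library were below 5 cells and entered no fit. Sox8 had no UMI in dendritic-like cells, and that call was lost in 9 of 12 alternatives. The Sox4 call against dendritic-like cells was lost in 3 of 12, with edgeR adjusted p-values up to 0.192. Sox4 was at 7.86 to 141 CPM in macrophage-like and 22.6 to 231 in microglia-like cells, and was not called against either (log2 0.70, SE 0.33, and 0.59, SE 0.32; edgeR adjusted p = 0.0736 and 0.116). Without the filter it was called higher in the tumour against both (edgeR adjusted p = 0.0046 and 0.0479), and against macrophage-like cells also without the early, the intermediate or the late WT library (edgeR adjusted p = 0.0279, 0.0408 and 0.0241).

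RNA from broken tumour cells can reach other droplets, so the low levels were set beside a collagen gene of the tumour, Col9a1, picked after its values were seen. Pooled over the tumour-bearing libraries, Col9a1 stood in lymphocytes, macrophage-like, microglia-like and dendritic-like cells at 1.70, 1.96, 2.53 and 2.96% of its tumour level. Sox2 stood there at 5.96, 3.45, 2.30 and 3.63%, Sox10 at 6.05, 3.78, 5.24 and 2.30% and Sox6 at 4.87, 3.63, 0.626 and 2.47%. Sox4 stood at 21.4, 43.2, 55.2 and 28.7%, several times the share of Col9a1. Taken within libraries, the medians for Col9a1 were 2.89, 2.78, 4.86 and 3.35% in the same order of classes, with libraries from 0 to 13.8%. Medians were 6.26, 4.29, 2.03 and 0% for Sox2 and 5.06, 3.52, 5.47 and 0% for Sox10. They were 1.43, 5.74, 0 and 0% for Sox6 and 14.2, 50.7, 66.8 and 49.4% for Sox4. The part of free RNA in any of these values was not tested. Naive microglia-like cells, with no tumour near, held 19.4 and 24.6 CPM of Sox2. They also held 22.7 and 29.5 CPM of Sox9, the SOXE gene of astrocytes. The part of RNA from other cells in these values was not tested either.

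Single cells showed the same division. Every cell was thinned to 1500 UMIs, because tumour cells were deeper (median 4899.5 UMIs) than the other classes (medians of 1895 to 4060). At that depth 37.2% of 3293 tumour cells had a Sox2 UMI (exact binomial 95% interval 35.5 to 38.8%; 70.2% of cells unthinned), against 0.781% of endothelial cells, which should lack it (1.55% unthinned). Sox10 was found in 33.3% of tumour cells, 29.3% of OPCs and 34.1% of oligodendrocytes (67.9, 53.1 and 62.3% unthinned), and in 0.781% of endothelial cells. Sox6 was found in 30.4% of tumour cells and 43.1% of OPCs (65.6% in both unthinned), and Sox4 in 15 and 39.7% (41.7 and 62.5% unthinned). A share at one depth follows the level of a gene, so these are not counts of expressing cells. Sox9 was found in 55.6% of astrocytes and 0.273% of tumour cells (68.5 and 0.769% unthinned). Sox18 was found in 0 of 3293 tumour cells, which allows a share of up to 0.0911%. These intervals and limits cover counting error only.

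**Figure D3:**
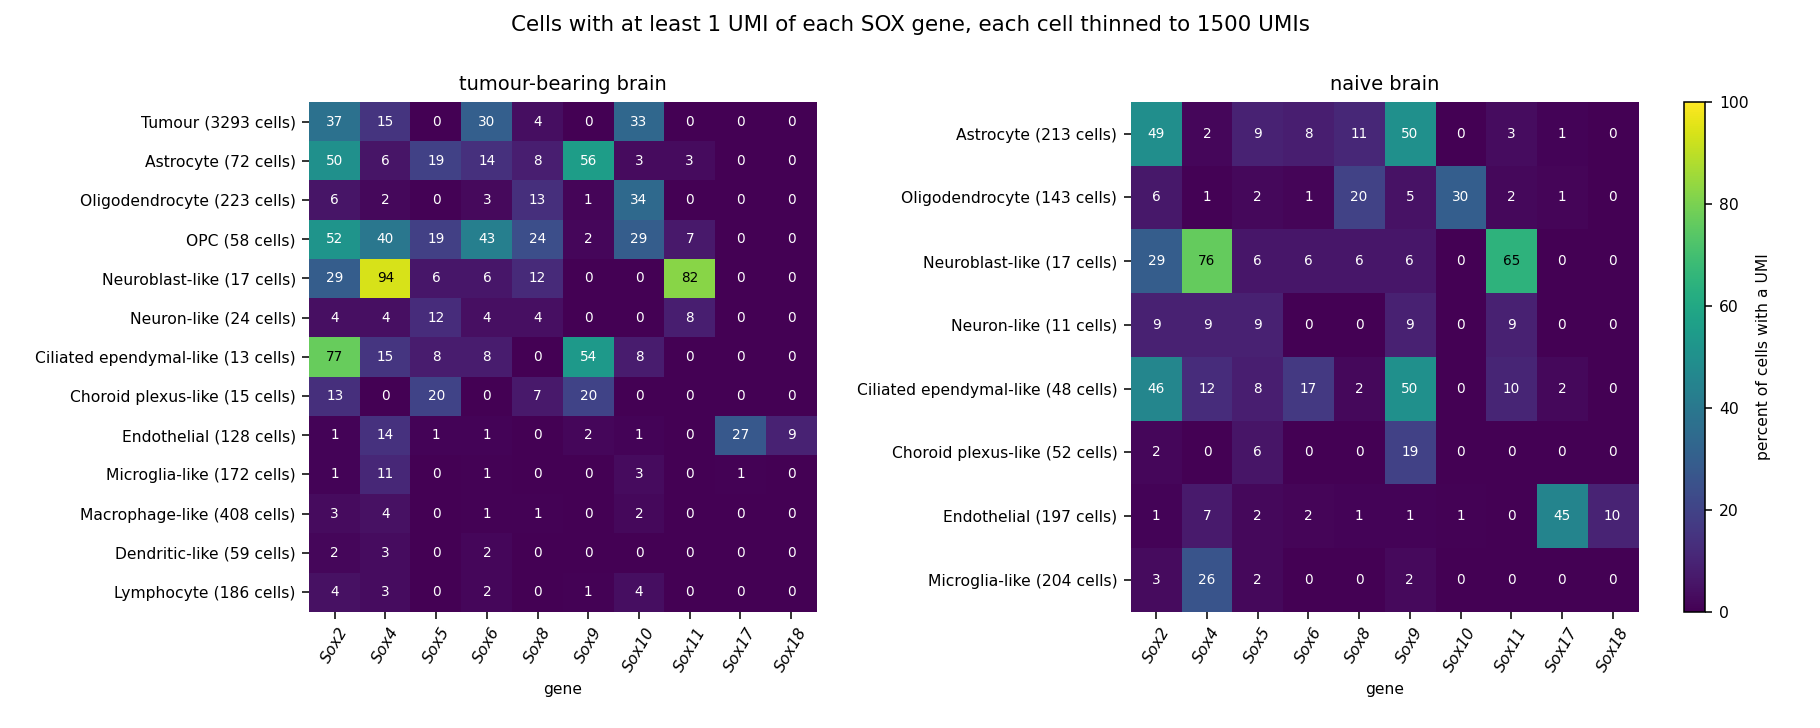
Percent of cells with at least 1 UMI of each SOX gene after thinning to 1500 UMIs, by class (rows) in tumour-bearing brain on the left and naive brain on the right, printed in each cell of the map to the nearest whole percent. In tumour-bearing brain tumour cells reach 37.2% for Sox2 and 33.3% for Sox10, astrocytes 55.6% for Sox9 and endothelial cells 27.3% for Sox17.

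A thinned tumour cell held UMIs of 1.21 members on average; 73.6% of tumour cells held any and 35.9% held 2 or more. OPCs held the most among glial classes, 2.16 members per cell with 65.5% at 2 or more. Astrocytes held 1.58, oligodendrocytes 0.601 and endothelial cells 0.555. Macrophage-like cells held 0.108, with 10.5% of cells holding any.

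Genes that SOX factors are known to act on were read from lists, as background to the members. The cartilage list holds collagens and linkers that SOX9, SOX5 and SOX6 bind together in chondrocytes. Of its 11 genes 9 were in the tables and 7 were tested. In the tumour 6 were higher than in astrocytes (27.1% of all genes), 6 than in OPCs (20.3%) and 7 than in oligodendrocytes (35.7%). In the same order 8.87, 8.8 and 20.8% of all genes were lower, and none of the 7 listed ones was. Their median log2 fold change was 4.32 against astrocytes (0.91 for all genes), 2.54 against OPCs (0.46) and 3.75 against oligodendrocytes (0.39). These genes were thus high in cells with Sox6 and with almost no Sox9 or Sox5. Col9a1, a chain of collagen IX, was at 748 to 2575 CPM in tumour cells and at 20.3 to 307 in OPCs, with a log2 fold change of 4.82 (SE 0.38, edgeR adjusted p = 1.24e-34). Col2a1, the main cartilage collagen, was at 141 to 415 in tumour cells and at 0 to 51.2 in OPCs, and no UMI of it was seen in the astrocytes tested. Col11a1, a chain of collagen XI, was 4.32 higher than in astrocytes (SE 0.42, edgeR adjusted p = 1.83e-23). Acan, the aggrecan core protein, was not part of this: it was at 0.256 to 13.8 in tumour cells and 0 to 235 in OPCs.

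**Figure D4:**
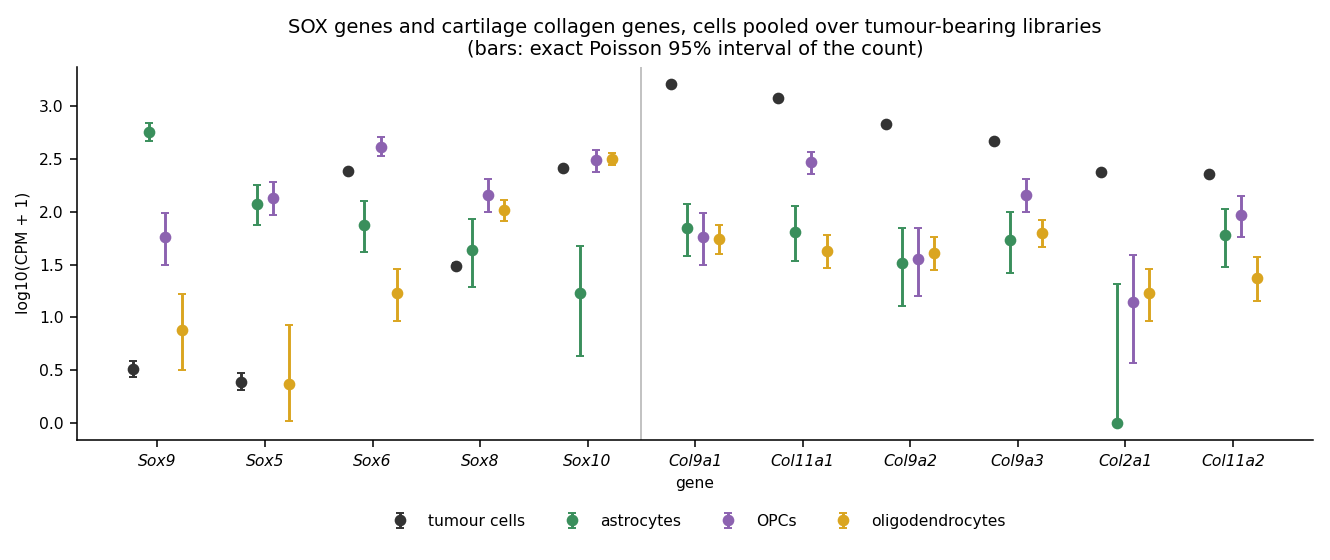
Levels, as log10(CPM + 1), of SOX genes (left) and cartilage collagen genes (right) in 4 classes, with the cells of all tumour-bearing libraries pooled; bars are exact 95% Poisson intervals and cover counting error only. Tumour cells pooled stand at 1617 CPM for Col9a1 and 2.23 for Sox9, and astrocytes at 69.2 and 564.

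The progenitor list, with the partners of SOX2, moved in both directions. Of all genes tested against astrocytes, 27.1% were higher in the tumour and 8.87% lower. Nes, an intermediate filament of neural stem cells, was higher in tumour cells than in astrocytes (log2 1.66, SE 0.44, edgeR adjusted p = 0.000891) and was the only one of 7 tested to be so. The lower genes numbered 5: Hes5 and Hes1, targets of Notch signalling, Fabp7, a fatty acid binding protein of radial glia, and Pou3f2 and Pou3f3, POU factors that bind with SOX2. Hes5 was lower (log2 -8.05, SE 0.65, edgeR adjusted p = 1.19e-33), Fabp7 likewise (log2 -4.89, SE 0.34, edgeR adjusted p = 1.98e-44) and Pou3f3 too (log2 -4.26, SE 0.34, edgeR adjusted p = 2.79e-34). Against OPCs 1 of 6 tested was higher, Nes again, and 3 were lower, beside 20.3% and 8.8% of all genes. Fabp7 was among the lower ones (log2 -5.49, SE 0.32, edgeR adjusted p = 3.98e-61).

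SOX10-dependent genes of the oligodendrocyte lineage were divided too. Against oligodendrocytes 6 of 9 tested were lower in the tumour and none higher, beside 20.8% and 35.7% of all genes. Among the lower ones Gjb1, a connexin of myelinating cells, stood at -5.50 on the log2 scale (SE 0.18, edgeR adjusted p = 2.87e-83). Against OPCs 1 of 7 was higher and 3 were lower, beside 20.3% and 8.8% of all genes. With so few genes, a count near those shares is no result about the list. Erbb3, a neuregulin receptor, was the higher one (log2 1.83, SE 0.57, edgeR adjusted p = 0.00708), and Ednrb, an endothelin receptor, was lower (log2 -6.08, SE 0.37, edgeR adjusted p = 7.88e-59). Against astrocytes 3 of 6 were higher and Ednrb was lower, beside 27.1% of all genes higher and 8.87% lower. Among the 3 higher ones Olig1, a basic helix-loop-helix factor of the lineage, was higher by 1.87 (SE 0.38, edgeR adjusted p = 8.6e-06).

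Of the list downstream of SOX4 and SOX11, 4 genes were tested: Tubb3, a neuronal tubulin, was higher in the tumour than in astrocytes (log2 3.08, SE 0.55, edgeR adjusted p = 2.4e-07) and Map2, a microtubule-associated protein, was lower (-1.09, SE 0.35, edgeR adjusted p = 0.00704). Of all genes tested there, 27.1% were higher and 8.87% lower. Of the list downstream of SOX17 and SOX18, 6 of 6 tested were lower in tumour than in endothelial cells, beside 15.9% of all genes, with Dll4, a Notch ligand of arteries, at -7.99 (SE 0.66, edgeR adjusted p = 3.86e-15). Of the other SOX genes, 6 of 10 were in the tables. Sox21, a SOXB2 gene, was at 1.26 to 6.88 CPM in the tumour and 30.4 to 137 in OPCs (log2 -3.98, SE 0.62, edgeR adjusted p = 4.08e-09). Sox2ot, the noncoding gene around Sox2, was at 4.33 to 19.4 in the tumour and 629 to 1008 in oligodendrocytes (log2 -6.46, SE 0.19, edgeR adjusted p = 1.63e-91), the reverse of Sox2 itself, which was higher in the tumour there.

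In tumour cells no tested member was called between host genotypes or between stages. Sox2, Sox4, Sox6, Sox8 and Sox10 were tested in 1 fit with genotype and stage. None of the 5 was called between KO and WT hosts, where 0.0% of 13704 genes were, and none between late and early tumours, where 0.0% were. At an unadjusted p below 0.05, 869 genes differed by genotype and 986 by stage, and DESeq2 called 68 and 20 genes. The log2 fold changes for KO against WT were 0.10 for Sox2 (SE 0.30), 0.16 for Sox4 (SE 0.21), -0.15 for Sox6 (SE 0.22), -0.70 for Sox8 (SE 0.32) and 0.20 for Sox10 (SE 0.17). Levels of all 5 overlapped between genotypes over the 3 stages. Within a stage, Sox8 was below WT in KO tumour cells in 3 of 3 pairs, at 16.8 against 19.3 CPM (early), 32.2 against 40.9 (intermediate) and 11.3 against 37.0 (late), while the other 4 had no sign shared by all stages. For late against early they were 0.55 for Sox2 (SE 0.37), 0.09 for Sox4 (SE 0.26), 0.12 for Sox6 (SE 0.27), 0.23 for Sox8 (SE 0.40) and 0.08 for Sox10 (SE 0.21). Within the early and the intermediate stage genotype and sex cannot be told apart. With sex as a further term, which left 1 residual degree of freedom and was added after the data were seen, none of the 5 was called in either contrast, beside 14 genes higher and 3 lower in KO. No gene of the other lists was called in either contrast.

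**Figure D5:**
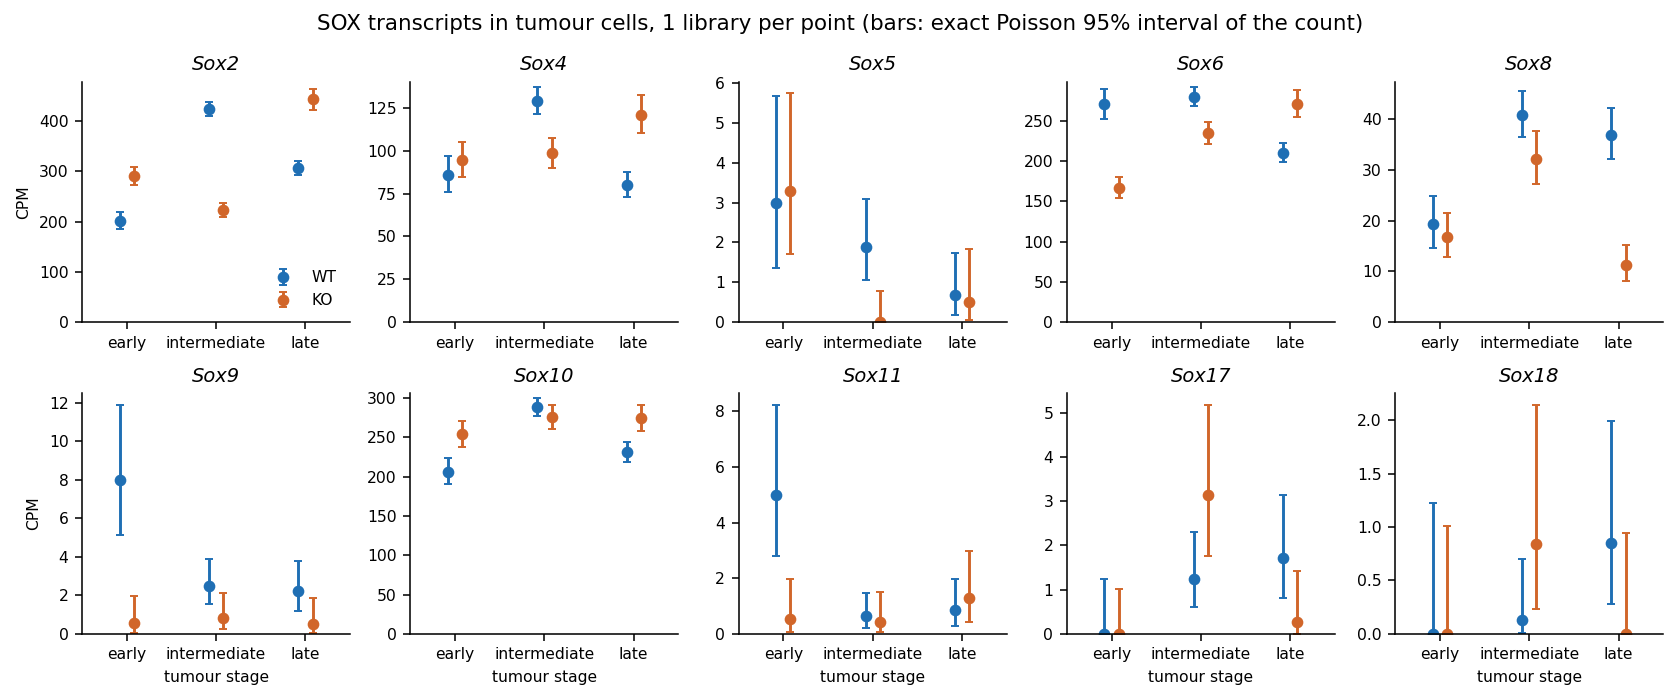
Level of SOX genes (CPM) in tumour cells of each library by stage, with WT and KO hosts in separate colours and exact 95% Poisson intervals. Sox10 lies between 206 and 288 in all 6 libraries, while Sox2 runs from 201 to 443 with no shared order of the genotypes.

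Normal lineages were compared between tumour-bearing and naive brain with genotype as covariate. Tumour-bearing libraries came from the dissected tumour core of 1 mouse, naive ones from naive brain of 2 pooled mice. The tumour, the brain region and the pooling thus cannot be told apart here. In bulk sums of a class, fewer cells that carry a gene and less RNA per cell cannot be told apart. In astrocytes Sox2 and Sox9 were tested and neither was called, beside 1.47% of genes (log2 0.04, SE 0.34, and 0.12, SE 0.30; edgeR adjusted p = 0.998 and 0.991). In oligodendrocytes Sox8 and Sox10 were tested and neither was called, beside 2.2% of genes (log2 -0.66, SE 0.32, and 0.24, SE 0.25; edgeR adjusted p = 0.501 and 0.818). Naive oligodendrocytes held 159 and 174 CPM of Sox8, inside the range of 46.1 to 186 in tumour-bearing brain.

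Endothelial cells from tumour-bearing brain held more Sox4. Naive endothelial cells stood at 37.0 (WT) and 35.7 (KO) CPM, and the tumour-bearing libraries at 107, 404 and 211 in WT and 99.4, 128 and 188 in KO for early, intermediate and late. The ranges did not overlap, and Sox4 was 1 of 2 members tested and the one called, beside 7.18% of genes (log2 2.20, SE 0.51, edgeR adjusted p = 0.0263). The call was lost without the naive KO or the naive WT library (edgeR adjusted p = 0.165 and 0.418). The class was not uniform: 34 of its 129 cells from tumour-bearing brain held more mural or fibroblast than endothelial marker UMIs, and 72 of the 96 Sox4 UMIs came from them, at 239 CPM. The other 95 cells stood at 69.5, against 37.1 in naive cells chosen the same way. Without the mural-rich cells, and with no filter since the gene then failed it, the log2 fold change was 0.57 (SE 0.60, edgeR adjusted p = 0.791). It was 0.76 with suspected doublets removed (SE 0.65, edgeR adjusted p = 0.776), also with no filter.

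Sox17 stood at 30.2 to 311 CPM in endothelial cells of tumour-bearing brain and at 508 and 475 in those of naive brain, and the ranges did not overlap. The test did not call it (log2 -1.42, SE 0.45, edgeR adjusted p = 0.0708), while with no filter on low counts it was called (log2 -1.55, adjusted p = 0.00395). Without mural-rich cells the pooled level was 287 in tumour-bearing and 516 in naive brain. With no filter and either mural-rich cells or suspected doublets removed, all 10 members were tested and none was called. Removing suspected doublets moved the mean Sox17 level over tumour-bearing libraries from 195 to 318 CPM. At 1500 UMIs, 27.3% of endothelial cells from tumour-bearing brain and 45.2% from naive brain had a Sox17 UMI (45.0 and 60.3% unthinned), against 0.0304% of tumour cells.

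Microglia-like cells changed in the other direction for Sox4. They stood at 364 (WT) and 178 (KO) CPM in naive brain and at 55.9, 231 and 22.6 in WT and 24.6, 67.5 and 90.1 in KO for early, intermediate and late tumours. The intermediate WT value rests on 4 UMIs in 5 cells and is the one that overlaps the naive range. Sox4 was the only member tested and was called lower, beside 16.2% of genes (log2 -2.07, SE 0.43, edgeR adjusted p = 0.0029). Without the naive WT library the call was lost (adjusted p = 0.296). At 1500 UMIs 26.0% of naive and 11% of tumour-bearing microglia-like cells had a Sox4 UMI (36.3 and 16.3% unthinned). Endothelial and microglia-like cells were then compared in their change of Sox4 from naive to tumour-bearing brain, after the 2 changes had been seen. This interaction was 4.11 on the log2 scale (SE 0.66, edgeR adjusted p = 0.00308), beside 1.11% of 4236 genes called. Its fit had no library block, so the sums of both classes in a library were taken as independent. Sox17 was the only other member tested there and was not called (log2 -3.91, SE 2.15, edgeR adjusted p = 0.51). Without mural-rich cells the interaction was 2.76 (adjusted p = 0.0656), and without the naive KO or the naive WT library it was no longer called (edgeR adjusted p = 0.108 and 0.17).

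Last, each member was set beside the genes most like it over 74 class-by-library sums. These sums share libraries and classes, so Pearson's r is a description of log2 levels and carries no p. Sox2 was most like Ptprz1 (r = 0.850) and Gpr37l1 (0.833), and Sox6 most like Sox2 itself (0.777). Sox10 was most like Gjc3 (0.896) and Olig1 (0.868), Sox8 most like Cmtm5 (0.829) and Sox9 most like Nwd1 (0.907). Sox5 was most like Kcnk1 (0.784), Sox4 most like Gm26735 (0.725) and Sox11 most like Miat (0.824) and Dcx (0.811). The endothelial pair had the closest likenesses, Sox17 with Tek (0.971) and Sox18 with Foxq1 (0.957).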

How the data were processed

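The authors sequenced Drop-seq libraries, prepared reads with bcl2fastq 2.0, FastQC and Picard and made raw UMI counts per gene and cell with the Drop-seq pipeline; per the labels, STAR and GRCm38/mm10 were used. The 8 deposited tables hold these counts for 3000 barcodes each, 2885345 to 9950713 UMIs in all.

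The members, lists and tests were chosen with earlier results of these data known. The 1000 largest barcodes per library, genes in at least 30 cells and cells with at least 1000 genes were kept. Log2(CPM + 1) values without SOX genes gave 50 principal components, t-SNE (Rtsne 0.17, perplexity 50) and HDBSCAN clusters (minimum 19); 74 unassigned cells took the majority class of 15 neighbours, and 1 myeloid cluster of 868 cells was divided into 10. Clusters were named from listed markers, with a scoring rule set after the data were seen. UMIs were summed per library and class (at least 5 cells) and tested with edgeR 4.0.16 (TMM, filterByExpr, quasi-likelihood; R 4.3.3), after a check on simulated data; Benjamini-Hochberg adjustment ran over all genes tested. Tumour against lineage fits had the library as block, naive fits genotype as covariate, and 1 additive fit covered genotype and stage. The interaction fit had genotype as covariate and no library block. The study's own tests on cells take cells as replicates and were not followed. All members were named; of other lists, up to 3 genes called each way, with the largest changes (1 such gene is not reported here), and for likeness the 3 genes with the highest r of log2(CPM + 10). Scrublet doublets (256 cells, 4 to 50 per library) were kept in the main result and removed in an alternative. Other alternatives were DESeq2 1.42.0, other size factors, no filter, no block or covariate, sex as a further term, Leiden clustering, SOX genes kept, other cell and gene minimums, the naive lineage, thinning to 1000 UMIs and leaving out each library. Depth limits the small classes: 1 UMI in 3 astrocytes is worth more than the tumour's whole Sox9 level.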

Additional observations from a re-analysis of the deposited data

Results flagged for a closer look

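In 7 of 35 groups of 6 or fewer libraries tested, 1 library stood apart from the others by Dixon's criterion. Its rate of about 1 in 20 by chance holds for normal values of equal spread. Levels from sums of unequal depth and few UMIs do not meet that, so no excess over chance is read from the count. Of these, 3 were Sox4 in the intermediate WT library, at 871 CPM in OPCs (332 to 392 in the others), 404 in endothelial cells (99.4 to 211) and 231 in microglia-like cells (22.6 to 90.1), classes of 5 or 6 cells there. Sox2 stood apart in OPCs of the late KO library at 685 (264 to 392 in the others), and Sox9 in OPCs of the late WT library at 215 (0 to 20.3). In tumour cells the early WT library stood apart for Sox9 at 7.99 (0.512 to 2.5) and for Sox11 at 5.0 (0.418 to 1.28).

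An interaction test, run on Sox4 after its 2 changes had been seen, compared endothelial with microglia-like cells in the change from naive to tumour-bearing brain. The difference was 4.11 on the log2 scale (SE 0.66, edgeR adjusted p = 0.00308). The fit had no library block, so the sums of both classes in a library were taken as independent. The call was lost without mural-rich cells (edgeR adjusted p = 0.0656), without the naive KO library (0.108) and without the naive WT library (0.17).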

How the results depend on the processing

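Mean levels in tumour-bearing brain moved by at least 1 SD in 7 alternatives and by less in 129. With TMM-scaled CPM the tumour cell levels were 420 for Sox2, 342 for Sox10, 320 for Sox6 and 136 for Sox4. With doublets removed, endothelial Sox4 went from 190 to 51.8, Sox17 from 195 to 318 and Sox18 from 52.2 to 92.4. Of 43 called fold changes of members, 34 held their direction and their call in every alternative tested and 1 reversed. Where a value below changed, the cause was not tested unless the alternative itself removes cells, libraries or genes. The count of members called in tumour cells against astrocytes moved from 4 to 7 with the lineage taken from the naive libraries and to 7 with at least 500 genes per cell. Against OPCs it moved from 2 to 5 without a filter on low counts and to 5 with at least 10 cells per sum, and ranged from 1 to 3 with 1 library left out. Against dendritic cell-like cells it moved from 5 to 3 with at least 500 genes per cell and ranged from 3 to 4 with 1 library left out. In endothelial cells against the naive brain, the count of 1 became 2 without a filter and with Leiden clustering, became 0 without mural-rich cells and with doublets removed (with and without the filter), and ranged from 0 without either naive library to 2 without the early WT library. In microglia-like cells it moved from 1 to 2 without a filter, and ranged from 0 (without the WT naive library) to 1. The interaction for Sox4 was 2.76 instead of 4.11 without mural-rich cells (edgeR adjusted p = 0.0656) and ranged from 3.85 to 4.81 with 1 library left out, where the call was lost without either naive library (edgeR adjusted p = 0.108 and 0.17).

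Signs of log2 differences turned as follows. Sox4 against astrocytes was -0.039 with Leiden clustering. Sox2 against OPCs was -0.079 with RLE size factors, -0.085 with DESeq2, -0.12 with at least 10 cells per sum and -0.045 with doublets removed, and Sox6 was 0.10 without a filter. Sox4 against endothelial cells was 1.63 with the naive lineage (edgeR adjusted p = 0.000687), 0.78 without mural-rich cells (edgeR adjusted p = 0.125) and 0.97 with doublets removed (edgeR adjusted p = 0.0584); against microglia-like cells it was -1.25 with the naive lineage (edgeR adjusted p = 0.00215). In astrocytes against the naive brain, Sox2 was -0.35 without a filter and -0.032 with doublets removed, and Sox9 -0.26 without a filter. With 1 library left out, Sox2 ranged from -0.56 to 0.046 against astrocytes, Sox6 from -0.42 to 0.013 against OPCs, and Sox2 from -0.22 to 0.16 and Sox9 from -0.14 to 0.32 in astrocytes against the naive brain. In KO against WT tumour cells, Sox2 then ranged from -0.16 to 0.57, Sox4 from -0.074 to 0.41 and Sox6 from -0.42 to 0.090. In late against early tumour cells, Sox4 ranged from -0.27 to 0.41, Sox6 from -0.28 to 0.51, Sox8 from -0.61 to 0.87 and Sox10 from -0.023 to 0.20, and with sex as a further term Sox4 was -0.054 and Sox10 -0.010.

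Over all genes, calls rose from 3764 to 7516 (astrocytes) and from 4474 to 6815 (endothelial cells) with the naive lineage, and from 3056 to 4755 (OPCs) without a filter. They fell from 3005 to 1424 (dendritic cell-like) with at least 500 genes per cell, and moved from 2605 to 4087 with the naive lineage and to 1028 without the intermediate KO library (neuron-like). Against the naive brain, the lowest and highest counts over all alternatives were 3 and 45 in astrocytes (9 as reported), 3 and 212 in oligodendrocytes (59), 3 and 597 in endothelial cells (226), 57 and 680 in microglia-like cells (528) and 0 and 11 in neuron-like cells (2), each lowest one without a naive library except in neuron-like cells. The interaction gave 0 to 127 (47 as reported). KO against WT gave 0 calls with edgeR, 68 with DESeq2 and 80 without the early WT library, and late against early gave 0, with 20 by DESeq2 and 13 without the early KO library. With sex as a further term, chosen after the data were seen, KO against WT gave 14 higher and 3 lower and late against early 0. Depth limits the classes of 5 or 6 cells and the members of the tumour cells near 1 CPM.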
